A study of Mus musculus with 104 samples.

Results

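Locus-specific bisulfite sequencing (LSBS) of mouse liver at postnatal day 1 (P1) was compared with LSBS at postnatal day 5 (P5), at every CpG of the assay. All 124 CpGs in 11 amplicons were taken, in 10 of the 39 LSBS livers. The 5 P1 and 5 P5 livers came from C57BL/6 mice (C57BL/6J in the study's methods), for which the labels give no treatment and no engineered allele, collected as one time-course cohort with both sexes analysed together. The study followed liver methylation after birth, and this comparison asks which of these loci changed within the first days. LSBS amplifies bisulfite-converted DNA at chosen loci by PCR and counts, at each CpG, the share of reads that kept a cytosine, which is the methylation level used here. The loci had been picked by the study from CpGs read by reduced representation bisulfite sequencing (RRBS), in which DNA is cut at CCGG before bisulfite conversion.

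The newborn liver is still a site of blood formation, and hematopoietic cells leave it around birth while hepatoblasts mature into hepatocytes. Methylation of a CpG is kept through cell division by maintenance methyltransferases, is added by de novo methyltransferases, and is lost either by oxidation or by dilution when a cell divides. Whole livers were used, so a change within cells and a change in the mix of cells cannot be told apart in these data. No RNA was measured in these libraries, so no marker of hepatocytes or of blood cells could be checked in them. By the study's histology of livers at these ages, hematopoietic cells made up a smaller share at P5 than at P1. Liver parenchyma made up a larger share.

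The amplicons were 251 to 283 bp long and held 6 to 18 CpGs each, and every CpG of the reference sequence within them was measured. Each is called here by the nearest protein-coding gene on mouse build mm9 (GENCODE vM1 annotation), which is a label of place and not a statement of regulation. No amplicon overlapped an exon, and 10 of the 11 were intergenic. The sequences of 4 are given, because they hold the largest fall (Bmf), the largest rise (Ehbp1), unequal changes among their CpGs (Ehbp1 and Klf9) and the smallest change (Gm17671). All are the plus strand of mm9, 5′ to 3′, from the first base of one primer to the last base of the other, with each measured CpG in capitals.
Bmf: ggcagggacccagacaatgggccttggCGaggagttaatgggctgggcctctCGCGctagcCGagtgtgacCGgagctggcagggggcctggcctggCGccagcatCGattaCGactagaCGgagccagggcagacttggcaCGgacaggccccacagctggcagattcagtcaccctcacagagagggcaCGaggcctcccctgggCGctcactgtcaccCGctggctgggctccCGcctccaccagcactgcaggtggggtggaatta
Ehbp1: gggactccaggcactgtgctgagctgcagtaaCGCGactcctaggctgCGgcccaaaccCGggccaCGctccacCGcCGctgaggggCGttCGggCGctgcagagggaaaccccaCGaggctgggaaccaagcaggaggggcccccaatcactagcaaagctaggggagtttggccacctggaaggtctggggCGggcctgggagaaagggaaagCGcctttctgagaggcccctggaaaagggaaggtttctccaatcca
Klf9: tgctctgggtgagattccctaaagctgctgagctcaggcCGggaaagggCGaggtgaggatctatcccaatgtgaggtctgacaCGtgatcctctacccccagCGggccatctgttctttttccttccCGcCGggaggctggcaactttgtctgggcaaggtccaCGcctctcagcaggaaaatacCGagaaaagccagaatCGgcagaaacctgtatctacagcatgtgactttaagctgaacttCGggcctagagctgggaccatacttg
Gm17671: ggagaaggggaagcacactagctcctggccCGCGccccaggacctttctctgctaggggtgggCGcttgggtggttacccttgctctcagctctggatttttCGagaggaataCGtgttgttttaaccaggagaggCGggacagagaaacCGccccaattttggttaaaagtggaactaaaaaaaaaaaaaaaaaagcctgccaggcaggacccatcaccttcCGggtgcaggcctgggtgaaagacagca

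The Bmf amplicon (chr2:118336239-118336508) lies 17985 bp downstream of Bmf, a pro-apoptotic member of the Bcl2 family. The Ehbp1 amplicon (chr11:21904651-21904911) lies 920 bp past the 3′ end of Ehbp1, an endocytic adaptor, and 1751 bp upstream of the start of Otx1, a homeobox transcription factor. The Klf9 amplicon (chr19:23211015-23211286) lies 4430 bp upstream of Klf9, a Krüppel-like transcription factor, and 808 bp from the non-coding gene 2410080I02Rik. The Gm17671 amplicon (chr15:102230297-102230547) lies 2349 bp upstream of Gm17671 and 6027 bp upstream of the transcription factor gene Sp1.

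Of the other amplicons, that of Rab3a (chr8:73277154-73277422) lies 1156 bp upstream of a small GTPase gene of vesicle exocytosis, and that of Dusp4 (chr8:35867974-35868253) lies 2098 bp upstream of a MAP kinase phosphatase gene. The Bcl11b amplicon (chr12:109288513-109288775) lies 46701 bp upstream of a zinc finger transcription factor gene known for its role in T cells. The Kcna5 amplicon (chr6:126367813-126368087) lies 114484 bp downstream of a voltage-gated potassium channel gene. The Rap1b amplicon (chr10:117336535-117336817) lies 53544 bp upstream of a small GTPase gene. The Galr1 amplicon, on chromosome 18, lies 364070 bp from a galanin receptor gene. Chst8, the label of the remaining amplicon, encodes a carbohydrate sulfotransferase.

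Between P1 and P5, 53 of the 124 CpGs were called, 34 with higher and 19 with lower methylation at P5. Here a call needs a mean difference over 5 percentage points and, from limma, a linear model that shares the estimate of spread over CpGs, an adjusted p (Benjamini-Hochberg) no higher than 0.1. The calls are 42.7% of all CpGs tested, with 27.4% called higher and 15.3% called lower. At a further 17 CpGs the adjusted p passed but the difference was under the limit of 5 points, and at 11 the difference was over the limit but the adjusted p did not pass. At 44 CpGs (35.5%) no P5 liver overlapped any P1 liver. Differences (P5 minus P1) ran from -21.3 to 19.3 points, with a median of 3.00 points over all CpGs.

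The amplicon was also tested as a single unit, since CpGs of one amplicon are read on the same molecules. The mean over its CpGs in each liver was compared by a two-sided exact permutation test of 5 against 5 livers, for which the smallest possible p is 0.00794, with adjustment over the 11 amplicons. By this test 8 amplicons had an adjusted p of at most 0.1. Of these, 4 also changed by over 5 points, which is 36.4% of the amplicons: Ehbp1, Rab3a and Kcna5 rose, and Bmf fell. The livers of the 2 ages did not overlap at 4 amplicons (36.4%), which were Bmf, Ehbp1, Dusp4 and Bcl11b.

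**Figure D1:**
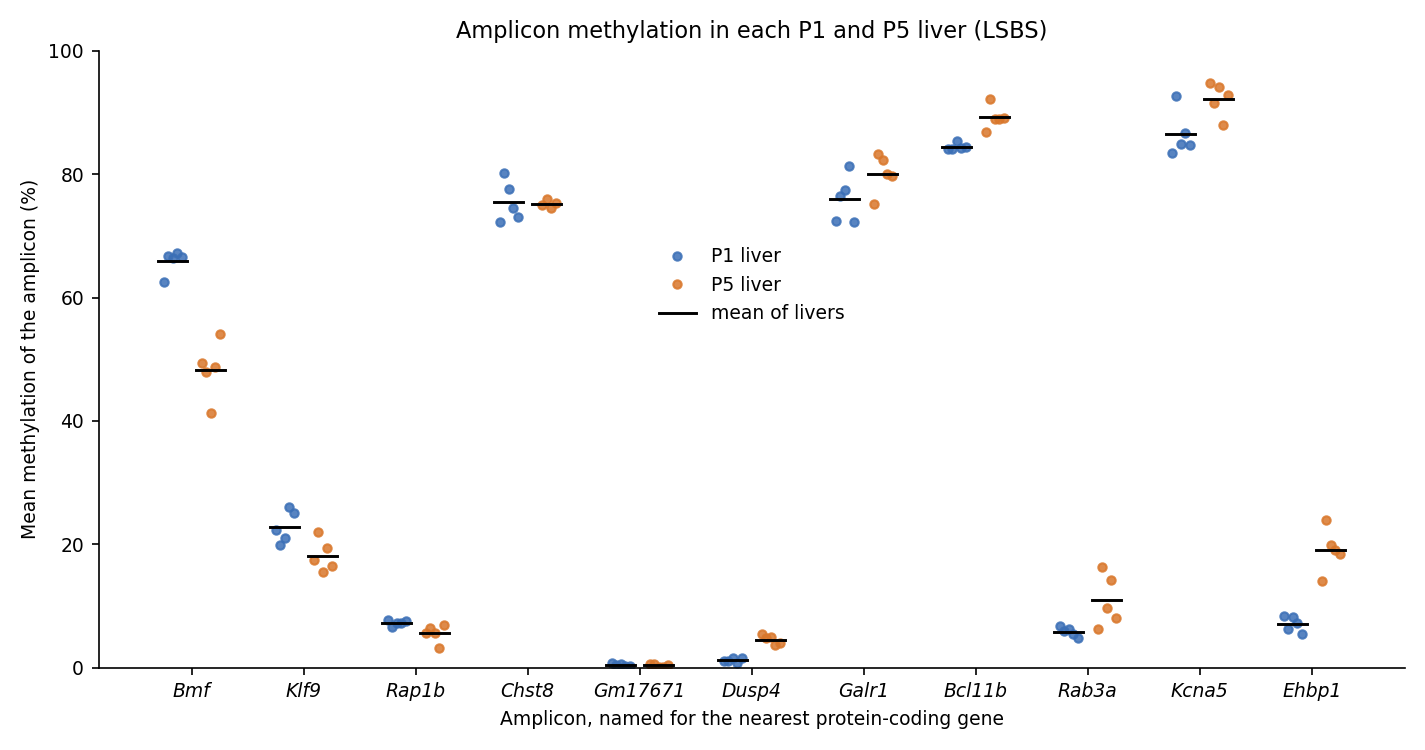
Mean methylation (%, y axis) of each of the 11 amplicons (x axis, ordered from largest fall to largest rise) in the P1 livers (blue points) and the P5 livers (orange points), with black lines for the mean of each age. The Bmf points fall from 65.9% to 48.3% on average and the Ehbp1 points rise from 7.16% to 19.1%, with no overlap between ages at either.

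Bmf showed the largest change. Its amplicon mean was 62.6, 66.8, 66.4, 67.2 and 66.6% in P1 livers 1 to 5, and 49.5, 48.0, 41.3, 48.7 and 54.2% in P5 livers 1 to 5. Every P5 liver was below every P1 liver, and liver 3 was the lowest at P5. The mean fell by 17.6 points (SE 2.23), from 65.9% ± 1.88 (SD, n = 5) to 48.3% ± 4.62 (SD, n = 5; exact permutation p = 0.00794, adjusted p = 0.0218). It fell by 15.8 to 19.0 points whichever of the 10 livers was left out.

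All 14 CpGs of the Bmf amplicon were called lower, and 13 of them showed no overlap between ages. The largest fall was at position 118336310, where P1 livers held 68.6, 67.9, 67.5, 70.5 and 66.0% and P5 livers held 46.8, 43.0, 41.1, 49.2 and 54.1%. There the mean fell by 21.3 points (limma SE 2.26, adjusted p = 0.000121). The smallest was at position 118336430, where the mean fell by 10.9 points (limma SE 3.43, adjusted p = 0.0255) from 61.0% ± 4.60 to 50.03% ± 6.96 (SD, n = 5 each). The 2 ages overlapped there because P5 liver 1, at 58.3%, was above P1 liver 1, at 55.8%. The CpG within 1 bp of the position in the primer name (the CpG of the primer name), at position 118336266, fell by 13.7 points (limma SE 2.62, adjusted p = 0.00246).

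The lowest and the highest CpGs of the Bmf amplicon were the same at both ages. The CpG at position 118336345 was the lowest, with 46.6% at P1 and 32.3% at P5. The 3 CpGs nearest the 3′ end, at positions 118336446, 118336460 and 118336475, were the highest, with 76.8, 78.3 and 75.9% at P1 and 57.4, 58.7 and 60.3% at P5. In the sequence above these are the last 3 CpGs in capitals. Across the 13 neighbouring pairs of CpGs, the changes of the 2 members differed by a median of 3.86 points.

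Ehbp1 showed the largest rise. Its amplicon mean was 8.45, 6.33, 8.24, 7.30 and 5.48% in P1 livers 1 to 5, and 14.1, 23.9, 19.9, 19.1 and 18.46% in P5 livers 1 to 5. Every P5 liver was above every P1 liver, with P5 liver 2 the highest and P5 liver 1 the lowest of its age. The mean rose by 11.9 points (SE 1.68), from 7.16% ± 1.26 to 19.1% ± 3.53 (SD, n = 5 each; exact permutation p = 0.00794, adjusted p = 0.0218).

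All 13 CpGs of the Ehbp1 amplicon were called higher, and the ages did not overlap at 11. The CpGs with the largest rises were the last 2 in the sequence above, which stand apart from the cluster of 11 at the other end. Position 21904844 rose by 19.3 points (limma SE 3.56, adjusted p = 0.00212) from 13.1% ± 2.75 to 32.4% ± 8.20 (SD, n = 5 each), and position 21904866 rose by 19.2 points (limma SE 3.92, adjusted p = 0.00311). The smallest rise, at position 21904710, was 5.41 points (limma SE 1.86, adjusted p = 0.0367), from 2.72% to 8.13%. It was under 5 points, and so no longer called, without P1 liver 5 (4.72 points) or P5 liver 2 (3.80 points), and with weights per liver (4.80 points). The CpG of the primer name, at position 21904683, rose by 13.0 points (limma SE 2.84, adjusted p = 0.00446).

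**Figure D2:**
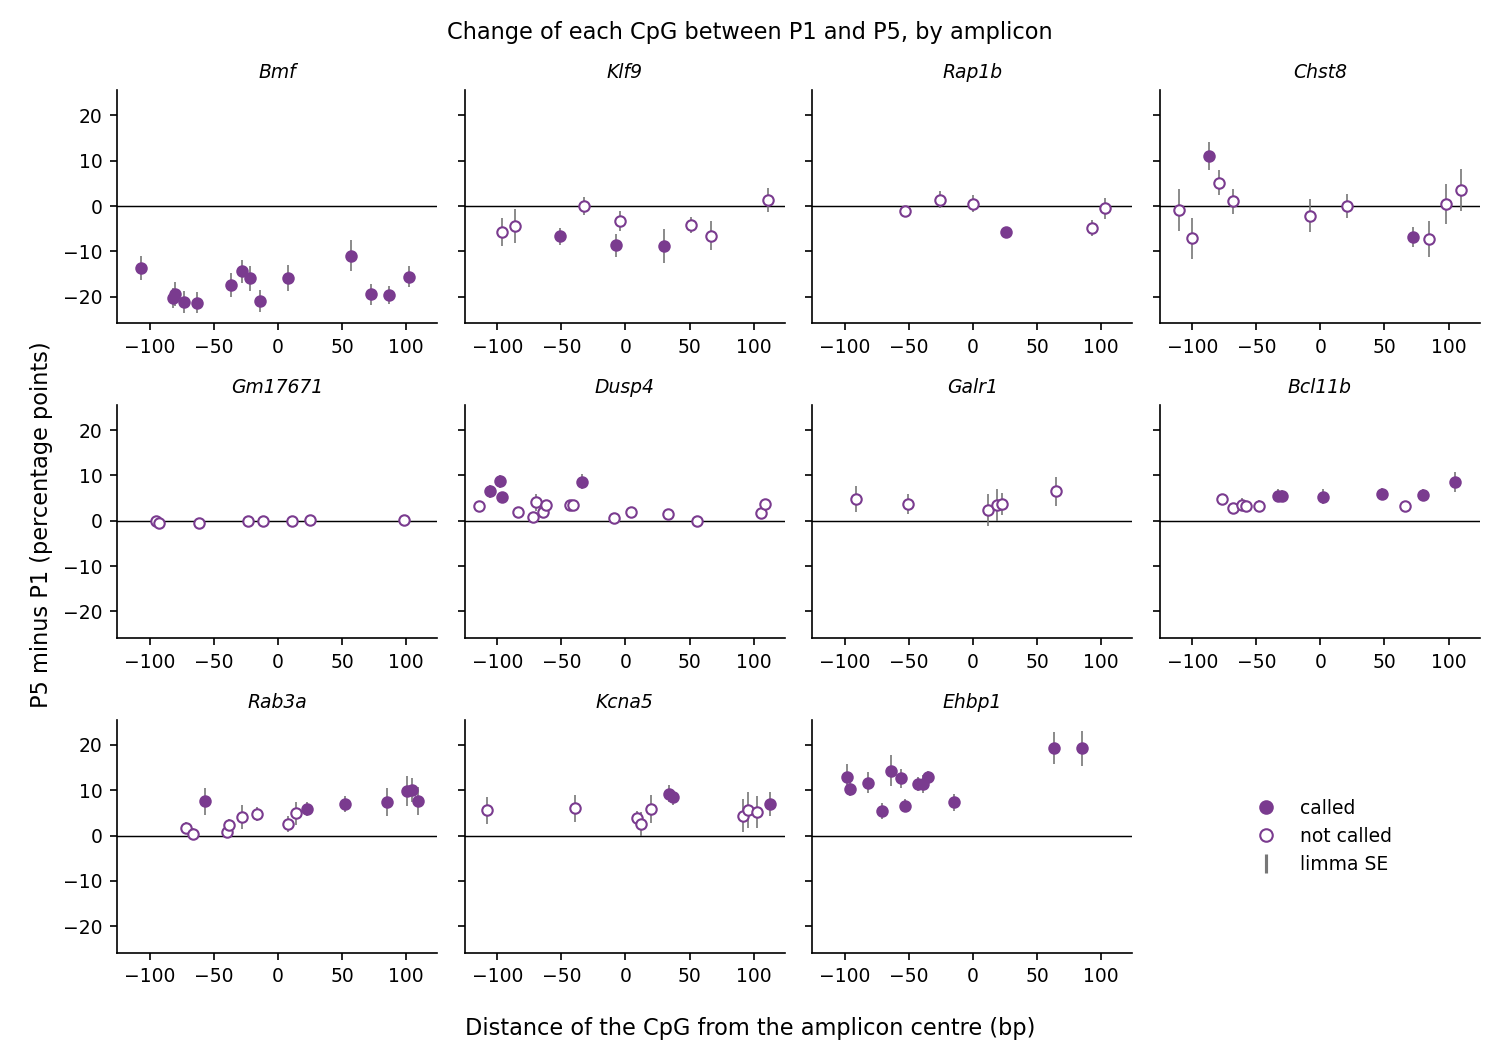
Difference of means between P5 and P1 (percentage points, y axis) at each of the 124 CpGs, against the distance of the CpG from the centre of its amplicon (bp, x axis), one panel per amplicon. Filled points are called, open points are not, and bars are limma standard errors. All 14 Bmf points lie below 0 and all 13 Ehbp1 points above it, while the Chst8 points run from -7.23 to 11.05 points.

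Rab3a rose by a smaller amount and with a wide spread between P5 livers. Its amplicon mean was 6.73, 5.90, 6.26, 5.47 and 4.80% in P1 livers 1 to 5, and 6.24, 16.3, 9.74, 14.3 and 8.06% in P5 livers 1 to 5. P5 liver 1 stood within the P1 range and the other 4 P5 livers stood above it. The mean rose by 5.09 points (SE 1.92), from 5.83% ± 0.739 to 10.9% ± 4.24 (SD, n = 5 each; exact permutation p = 0.0238, adjusted p = 0.0374). The rise was under the limit of 5 points without P1 liver 5 (4.84 points), P5 liver 2 (3.75 points) or P5 liver 4 (4.26 points), and on the logit scale its adjusted p was 0.112 by the exact permutation test.

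All 15 Rab3a CpGs had a higher mean at P5, and 7 were called. Of the 7, 6 were the last 6 CpGs at the 3′ end of the amplicon. The largest rise was at position 73277393, where P1 livers held 17.8, 15.7, 15.1, 15.7 and 12.1% and P5 livers held 18.1, 27.4, 24.6, 34.5 and 22.1%. The ages did not overlap there, and the mean rose by 10.1 points (limma SE 2.70, adjusted p = 0.0125). The CpG of the primer name, at position 73277222, had the smallest difference, 0.412 points (limma SE 1.22, adjusted p = 0.823), with 2.06% ± 0.345 at P1 and 2.48% ± 2.66 at P5 (SD, n = 5 each). P5 liver 2 held 7.16% at that CpG, and the other P5 livers held 0.854 to 1.93%.

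The Dusp4 amplicon was almost unmethylated at P1. Its mean was 1.06, 1.17, 1.52, 0.758 and 1.61% in P1 livers 1 to 5, and 5.42, 4.81, 4.92, 3.71 and 4.00% in P5 livers 1 to 5. Every P5 liver was above every P1 liver, so the exact permutation p took its smallest value (0.00794, adjusted p = 0.0218), but the rise of 3.35 points (SE 0.351) was under the 5-point limit and the amplicon was not called. Of its 18 CpGs, 17 had a higher mean at P5 and 4 were called. The largest rise was at position 35868015, from 0.932, 1.60, 1.58, 0.455 and 0.988% in P1 livers to 14.1, 9.39, 10.9, 9.52 and 5.17% in P5 livers. That was a rise of 8.71 points (limma SE 1.44, adjusted p = 0.00124). The other called CpGs, at positions 35868007, 35868017 and 35868079, rose by 6.52, 5.18 and 8.62 points. The CpG of the primer name, at position 35868104, held 1.501% ± 0.956 at P1 and 2.10% ± 1.18 at P5 (SD, n = 5 each; limma adjusted p = 0.576).

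Kcna5, Bcl11b and Galr1 were highly methylated at P1 and had higher means at P5. The Kcna5 amplicon held 83.4, 92.6, 84.8, 86.7 and 84.7% in P1 livers 1 to 5, and 94.8, 91.5, 94.1, 87.9 and 92.9% in P5 livers 1 to 5. P1 liver 2 stood among the P5 livers and the other P1 livers stood below all of them. The mean rose by 5.78 points (SE 2.04), from 86.4% ± 3.67 to 92.2% ± 2.72 (SD, n = 5 each; exact permutation p = 0.0238, adjusted p = 0.0374). All 11 CpGs had a higher mean at P5 and 3 were called, with the largest rise, 9.23 points (limma SE 1.83, adjusted p = 0.0029), at position 126367984. At the CpG of the primer name, position 126368042, the difference was 4.38 points (limma SE 3.59, adjusted p = 0.328). It was 6.89 points, and called, without P5 liver 2 (limma adjusted p = 0.0967).

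The Bcl11b amplicon held 84.1, 84.1, 85.3, 84.2 and 84.4% in P1 livers 1 to 5, and 86.9, 92.2, 89.0, 88.9 and 89.1% in P5 livers 1 to 5. The ages did not overlap (exact permutation p = 0.00794, adjusted p = 0.0218). The rise of 4.80 points (SE 0.878) was just under the 5-point limit. It was over the limit without P1 liver 3 (5.02 points) or P5 liver 1 (5.38 points). The adjusted p passed at all 12 CpGs, and at 6 the difference was also over 5 points. Position 109288749 was the lowest CpG of the amplicon at both ages and had the largest rise, 8.48 points (limma SE 2.19, adjusted p = 0.0106), from 61.3% ± 2.93 to 69.8% ± 4.33 (SD, n = 5 each). At the CpG of the primer name, position 109288646, the rise was 5.35 points (limma SE 1.61, adjusted p = 0.0207). It was under 5 points without P1 liver 5 (4.98 points) or P5 liver 2 (3.89 points).

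The Galr1 amplicon held 72.5, 76.4, 77.5, 81.4 and 72.3% in P1 livers 1 to 5, and 75.1, 83.2, 82.3, 80.1 and 79.7% in P5 livers 1 to 5. P5 liver 1 was below P1 livers 2, 3 and 4, and P1 liver 4 was above P5 livers 1, 4 and 5. The difference of 4.07 points (SE 2.21) did not pass (exact permutation p = 0.111, adjusted p = 0.136). It passed, and was over 5 points, without P1 liver 4 (5.41 points, adjusted exact permutation p = 0.0764) or P5 liver 1 (5.31 points, adjusted exact permutation p = 0.0679). All 6 CpGs had a higher mean at P5, by 2.38 to 6.49 points, and none was called. The CpG with the rise of 6.49 points was called with weights per liver (7.41 points), without the low CpGs in the fit (limma adjusted p = 0.0802), without P1 liver 4 (8.52 points) and without P5 liver 1 (8.87 points).

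Klf9 and Rap1b passed the test with falls under 5 points. The Klf9 amplicon held 22.3, 19.9, 21.0, 26.1 and 25.2% in P1 livers 1 to 5, and 17.5, 21.9, 15.5, 19.4 and 16.6% in P5 livers 1 to 5. P5 liver 2 stood within the P1 range and the other P5 livers stood below it. The mean fell by 4.72 points (SE 1.65), from 22.9% ± 2.66 to 18.2% ± 2.56 (SD, n = 5 each; exact permutation p = 0.0317, adjusted p = 0.0437). Without P1 liver 2, P1 liver 3, P5 liver 2 or P5 liver 4 it fell by 5.02 to 5.66 points, past the limit.

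Within the Klf9 amplicon the CpGs were unequal in level and in change. Of the 10 CpGs, 9 had a lower mean at P5, and 3 were called lower. Position 23211143 held 36.7, 35.5, 37.5, 33.0 and 34.1% in P1 livers and 32.0, 29.5, 17.3, 29.2 and 25.5% in P5 livers, and fell by 8.64 points with no overlap (limma SE 2.52, adjusted p = 0.0181). The next CpG, only 3 bp away at position 23211146, had 17.4% at P1 and 14.0% at P5, a difference of -3.37 points (limma SE 2.18, adjusted p = 0.22). The largest change was at position 23211180, which fell by 8.85 points (limma SE 3.78, adjusted p = 0.0763), from 39.9% ± 7.47 to 31.0% ± 5.37 (SD, n = 5 each), and its limma adjusted p was over 0.1 without any 1 of 5 livers (0.106 to 0.168), and with all livers in the unmoderated model (0.110) and with weights per liver (0.167). The CpG of the primer name, at position 23211118, had the smallest difference, -0.0504 points (limma SE 2.01, adjusted p = 0.989). In the sequence above, positions 23211143 and 23211146 are the CpGs in the run CGcCG.

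The Rap1b amplicon held 7.76, 6.54, 7.23, 7.33 and 7.53% in P1 livers 1 to 5, and 5.63, 6.46, 5.68, 3.23 and 6.94% in P5 livers 1 to 5. P5 liver 5 stood within the P1 range and the other P5 livers stood below it. The mean fell by 1.69 points (SE 0.671; exact permutation p = 0.0159, adjusted p = 0.0349). Only 1 of its 6 CpGs was called: position 117336702, which fell by 5.62 points (limma SE 1.09, adjusted p = 0.00259), from 9.04% ± 1.19 to 3.42% ± 1.96 (SD, n = 5 each) with no overlap. Without P5 liver 4, which held 0.803% there, it fell by 4.97 points. The CpG of the primer name, at position 117336769, fell by 4.83 points (limma SE 1.75, adjusted p = 0.0442). It was past the limit, and so called, with weights per liver (-5.91 points) and without any 1 of P1 livers 1, 2 and 5 and P5 livers 1 and 2 (-5.92 to -5.04 points).

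The Chst8 amplicon mean did not pass the test, and 2 of its CpGs were called, in opposite directions. P5 liver 1 had no value at any of its 11 CpGs, and these were the only missing values among the 10 livers. The amplicon held 72.3, 80.2, 77.5, 74.5 and 73.0% in P1 livers 1 to 5, and 74.9, 76.0, 74.6 and 75.4% in P5 livers 2 to 5. The P5 livers lay within the P1 range, and the difference was -0.283 points (SE 1.501; exact permutation p = 0.913, adjusted p = 0.913). The P1 livers spread over a wider range, with an SD of 3.29 (n = 5) against 0.605 (n = 4).

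At the called CpG of the Chst8 amplicon that rose, P1 livers held 72.6, 76.6, 85.4, 80.1 and 77.4% and P5 livers 2 to 5 held 88.3, 94.5, 82.2 and 92.9%. The ages overlapped only at P1 liver 3 and P5 liver 4, and the mean rose by 11.05 points (limma SE 3.121, adjusted p = 0.018). At the other called CpG the mean fell by 6.90 points (limma SE 2.25, adjusted p = 0.0334), from 92.7% ± 2.01 (SD, n = 5) to 85.8% ± 4.96 (SD, n = 4). At the other 9 CpGs no change was called, and the differences ran from -7.23 to 5.18 points. The CpG of the primer name was the one with -7.23 points (limma SE 3.91, adjusted p = 0.151), and it was called without the low CpGs in the fit (limma adjusted p = 0.09998). Neighbouring CpGs of this amplicon differed by a median of 15.6 points in level at P1. A neighbour 13 bp from the CpG that rose had a difference of -7.10 points against its 11.05 points, the widest gap in change between neighbouring CpGs in the 11 amplicons (18.1 points).

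**Figure D3:**
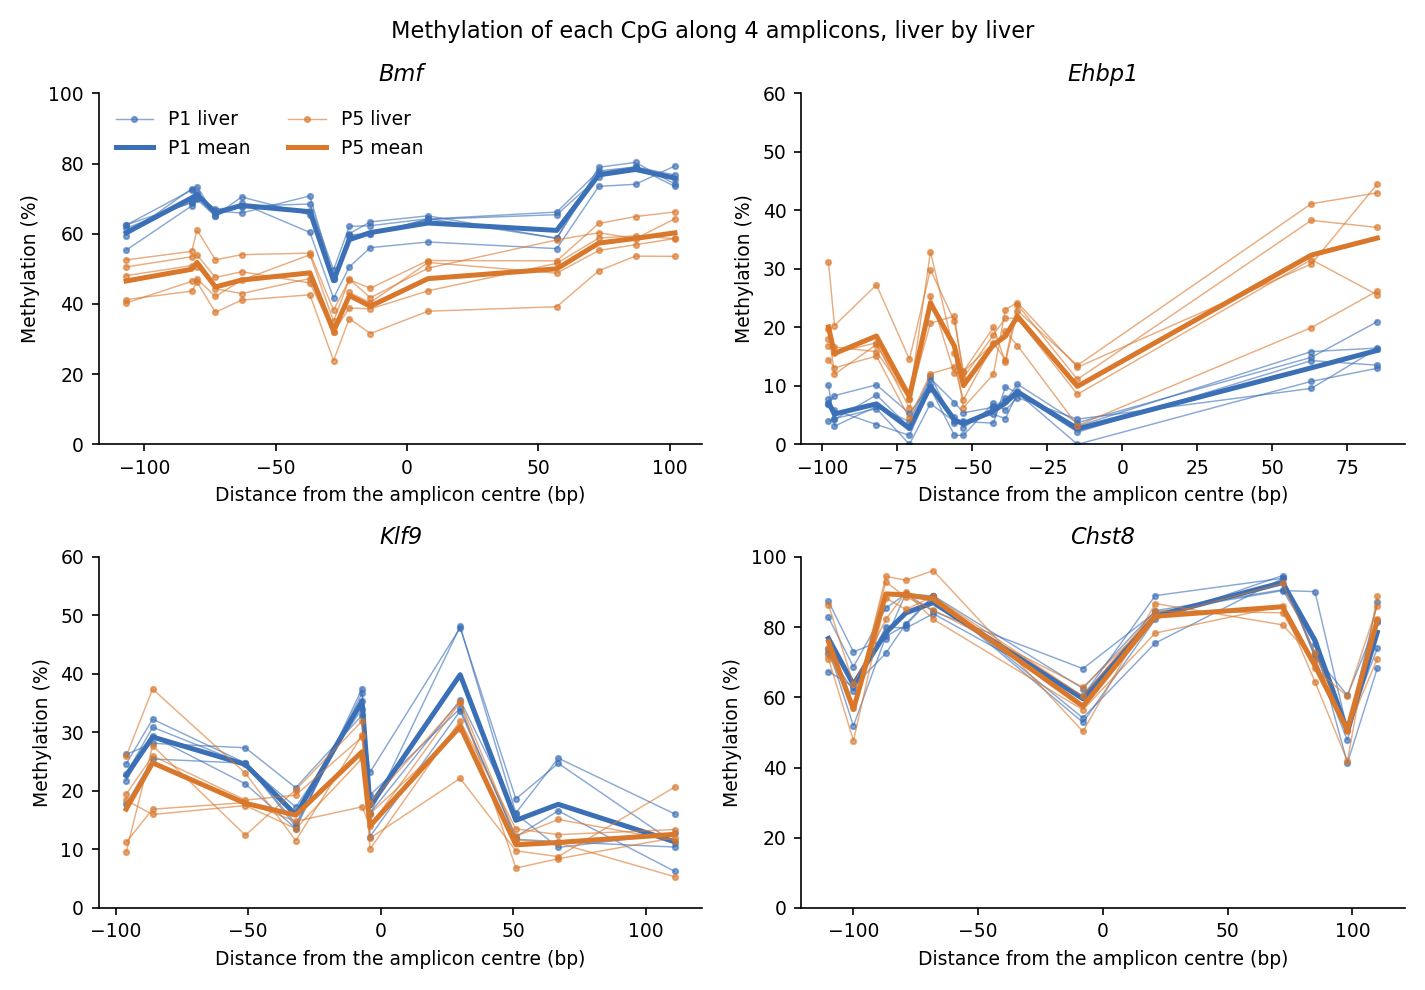
Methylation (%, y axis) of each CpG along the Bmf, Ehbp1, Klf9 and Chst8 amplicons against distance from the amplicon centre (bp, x axis), with thin lines for single livers and thick lines for the means of P1 (blue) and P5 (orange). The Bmf and Ehbp1 mean profiles are shifted along their whole length, the Klf9 profiles meet at position -32 bp (15.9% at both ages), and the Chst8 profiles cross.

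The Gm17671 amplicon was under 1% methylated at both ages. It held 0.805, 0.509, 0.694, 0.248 and 0.321% in P1 livers 1 to 5, and 0.614, 0.640, 0.0926, 0.206 and 0.385% in P5 livers 1 to 5. No liver reached 1%, and the ages overlapped. The difference was -0.128 points (SE 0.152; exact permutation p = 0.413, adjusted p = 0.454). Its 8 CpGs changed by -0.568 to 0.235 points.

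The direction of change varied with the level at P1. Of the 65 CpGs under 20% methylated at P1, 24 were called higher and 1 lower. Of the 28 CpGs over 80%, 8 were called higher and 1 lower. Of the 31 CpGs between these levels, 2 were called higher and 17 lower, and 14 of those 17 were in the Bmf amplicon. CpGs of one amplicon share their molecules, so these counts rest on 11 loci. They were given as a description, with no test. The 4 most methylated amplicons at P1 (Kcna5, Bcl11b, Galr1 and Chst8) had 75.5 to 86.4% there.

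Averaged over all amplicons with their signs, the change did not pass the test. The mean over the 11 amplicons was 39.4% at P1 and 40.3% at P5, and the mean shift of the P5 livers was 0.956 points above that of the P1 livers (exact permutation p = 0.167). Without regard to sign, the amplicons changed by a mean of 5.401 points. On the logit scale, which weighs changes near 0 and 100% more, the same comparison gave an exact permutation p of 0.00794.

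The SD between livers was larger at P5 at 92 of the 124 CpGs and at 7 of the 11 amplicons, and the median SD over CpGs was 2.04 points at P1 and 3.75 points at P5. These counts were not tested. Among P5 livers, liver 2 was the highest at 6 of 11 amplicons and the lowest at none, and its amplicons lay a mean of 1.83 points above the mean of its age. P5 liver 1 lay a mean of 1.29 points below it over 10 amplicons. No pair of the 10 livers was close enough to be one library deposited under 2 labels, since the nearest pair, P1 livers 3 and 5, differed by a mean of 2.70 points per CpG.

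To place this step among its neighbours, the intervals before and after it were tested in the same way with their own livers, which share the P1 or P5 livers with the step described here. The intervals differ in length, and the one from E18 to P1 is the shortest. Some of the other ages include livers whose titles have another format, and which may be of another cohort: 2 of 6 at E18, 1 of 6 at P10, 2 of 6 at P15 and 1 of 6 at P20. The study's methods give E18.5 as the fetal age. By title, 4 of the 6 fetal livers are E18, and the 2 titled in the other format are E18.5. All 6 are called E18 here. From E18 to P1, 2 of 124 CpGs were called (1.61%), and 26 had a limma p under 0.05 before adjustment. They were position 109288749 near Bcl11b, which rose from 53.3% to 61.3%, and position 23211064 near Klf9, which fell from 37.1% to 29.2%. From P5 to P10, 37 CpGs were called (29.8%), 22 higher and 15 lower. Without the livers titled in the other format, chosen as an alternative after the data were seen, these counts were 2 and 31. At Dusp4 that P10 liver held 12.3%, above 6.05 to 7.86% in the other 5.

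The difference between consecutive steps was then tested in a limma fit of all 39 livers with age as a factor. Steps of unequal length were compared as total changes and not per day, so a steady daily rate would also make them differ. At 18 CpGs (14.5%) the change from P1 to P5 differed from the change from E18 to P1 at an adjusted p of at most 0.1. Of these, 13 of the 14 Bmf CpGs and 3 of the 13 Ehbp1 CpGs made up 16, and the others were position 117336702 near Rap1b and the CpG of Chst8 that rose. At position 118336336 of Bmf the step from P1 to P5 was lower by 20.9 points than the step before it (difference of steps -20.9, limma SE 4.65, adjusted p = 0.00461). On the logit scale 23 passed, of which 9 were at Bmf and 9 at Dusp4, where none had passed on the percent scale, with 14 of the 23 differences of steps above 0 against 4 of 18 before. Without P1 liver 2, without P1 liver 5, or without the 6 livers titled in the other format, 7 CpGs passed. With only the 3 ages of the contrast in the fit, 35 passed.

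Only 1 CpG (0.806%), position 21904725 near Ehbp1, differed between the step from P1 to P5 and the step from P5 to P10, where the later step minus the step from P1 to P5 was -14.8 points (limma SE 3.84, adjusted p = 0.0616). It rose from 4.17% ± 2.03 at P1 to 16.8% ± 4.47 at P5 (SD, n = 5 each). That count was 0 without any 1 of 5 of the 10 livers, namely P1 livers 2 and 4 and P5 livers 2, 3 and 5. It was 3 without P5 liver 4, and 3 on the logit scale.

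The amplicon steps are given side by side, with no test between them. The Bmf mean changed by -0.669 points (SE 1.06) from E18 to P1, by -17.6 points from P1 to P5 and by -9.75 points (SE 2.35) from P5 to P10. The Ehbp1 mean changed by 2.25 points (SE 0.697), 11.9 points and 6.15 points (SE 1.78) over the same intervals. The Rab3a mean changed by 1.11 points (SE 0.351), 5.09 points and 8.39 points (SE 2.30). For Bmf, Ehbp1, Kcna5 and Bcl11b the step from P1 to P5 was, by the means, the largest of the 5 steps between E18 and P20, with and without the livers titled in the other format. For Dusp4 it was the step from P10 to P15 both ways, at 7.06 points with them and 7.30 points without. The ranking is of total changes and not of changes per day. Over the shortest interval, from E18 to P1, Kcna5 changed by 3.97 points and Bcl11b by 2.81 points, against 5.78 and 4.80 points from P1 to P5.

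**Figure D4:**
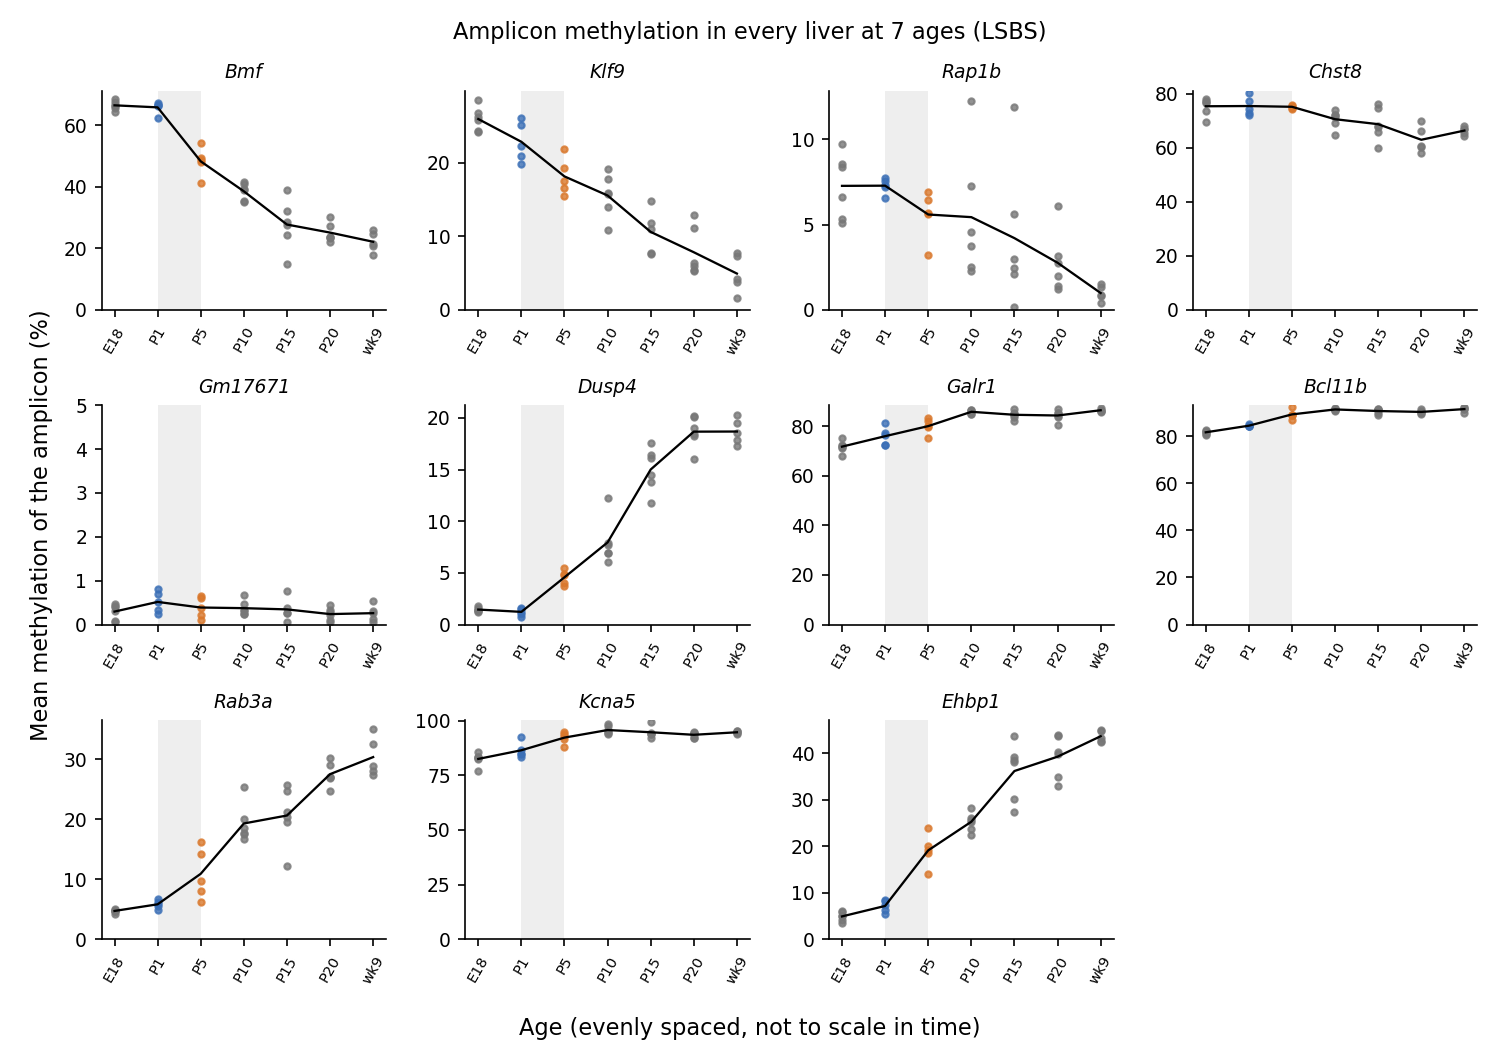
Mean methylation of each amplicon (%, y axis, scaled per panel) in every LSBS liver at 7 ages (x axis, evenly spaced), with the P1 to P5 interval shaded and a line through the means. In the Bmf panel the line runs level from 66.6% at E18 to 65.9% at P1 and then down to 48.3% at P5. The Gm17671 points stay under 1% at all ages.

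The adult livers were 5 of another cohort, all titled wk9, although the stage label differs for each of them and runs from wk9 to wk13, so their age is uncertain by weeks. At 7 amplicons the E18 and adult means differed by over 10 points, and the share of that difference reached by P5 was computed with no test. By P1 the share reached was -1.30 to 32.6%, and by P5 it was 18.1 to 79.996%. Kcna5 was the farthest along at P5, with 79.996% of its rise from 82.5% to 94.7%. Bmf had covered 41.1% of its fall from 66.6% to 22.1%, and Ehbp1 36.7% of its rise from 4.91% to 43.6%. Klf9 had covered 37.1%, Galr1 56.4%, Rab3a 24.2% and Dusp4 18.1%. With P20 in place of the adults, the shares reached by P5 were 88.4% at Kcna5, 66.0% at Galr1, 44.0% at Bmf and 43.1% at Klf9. They were then 41.4% at Ehbp1, 27.2% at Rab3a and 18.1% at Dusp4. The step from P1 to P5 alone took 19.4% (Dusp4) to 47.4% (Kcna5) of the difference, with a median of 27.7%.

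RRBS of the time course read some of the same CpGs in 4 P1 livers (numbers 1, 2, 3 and 5) and 4 P5 livers (numbers 1, 3, 4 and 5) that also had LSBS under the same labels. With 4 livers an age the smallest possible two-sided exact permutation p is 0.0286, and p-values of this readout were not adjusted. At 3 CpGs of the Rab3a amplicon, RRBS gave 13.4, 4.63, 8.11 and 4.85% at P1 and 2.30, 0, 3.13 and 4.44% at P5. The ages did not overlap, and the RRBS mean fell by 5.28 points, from 7.75% ± 4.09 to 2.47% ± 1.87 (SD, n = 4 each; exact permutation p = 0.0286). Without P1 liver 1 the fall was 3.40 points (exact permutation p = 0.0571), and without any 1 of the 4 P5 livers the exact permutation p was 0.0857 to 0.114. LSBS of the same 3 CpGs in the same livers rose by 7.68 points, from 12.3% ± 2.78 to 19.9% ± 6.43 (SD, n = 4 each; exact permutation p = 0.0286). Without P5 liver 4 the LSBS rise was 4.49 points (exact permutation p = 0.0571), and without any 1 of P1 livers 2, 3 and 5 its exact permutation p was 0.0857. The means of the 2 assays thus moved in opposite directions, and the difference between their changes was 13.0 points (exact permutation p = 0.0286). It was 9.99 to 14.4 points without single livers (exact permutation p = 0.0286 each time). The test of this difference was added after the values had been seen, and the cause was not tested. The study itself reported no CpG with a significant difference between the 2 assays. That was a comparison of methylation status and not of the change between P1 and P5.

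The same held for each of the 3 Rab3a CpGs by its mean. Position 73277389 went from 4.10% to 2.45% by RRBS and from 12.2% to 20.3% by LSBS. Position 73277393 went from 10.9% to 3.31% by RRBS and from 15.2% to 24.8% by LSBS. Position 73277397 went from 8.24% to 1.64% by RRBS and from 9.42% to 14.7% by LSBS.

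At the other 3 amplicons read by RRBS, neither assay gave an unadjusted exact permutation p under 0.05 over these livers. Over 4 CpGs of Rap1b the RRBS mean was 7.20% ± 3.44 at P1 and 5.15% ± 3.26 at P5 (SD, n = 4 each; exact permutation p = 0.457), beside 7.45% and 6.13% by LSBS. Over 3 CpGs of Galr1 it was 76.6% ± 10.37 and 75.1% ± 13.1 (SD, n = 4 each; exact permutation p = 0.886), beside 79.5% and 84.0% by LSBS. At the single Klf9 CpG, position 23211054, RRBS gave 4.89% ± 3.82 and 5.09% ± 5.73 (SD, n = 4 each; exact permutation p = 0.971), where LSBS gave 21.7% and 14.6% (exact permutation p = 0.0857). There the LSBS mean was above the RRBS mean at both ages, and the difference in level was not tested. At P5 the values of the assays overlapped, with 13.0% by RRBS in liver 5 and 9.49% by LSBS in liver 1. The difference between the assays' changes was 0.731 points at Rap1b (exact permutation p = 0.771), 5.90 points at Galr1 (exact permutation p = 0.543) and -7.31 points at Klf9 (exact permutation p = 0.143).

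**Figure D5:**
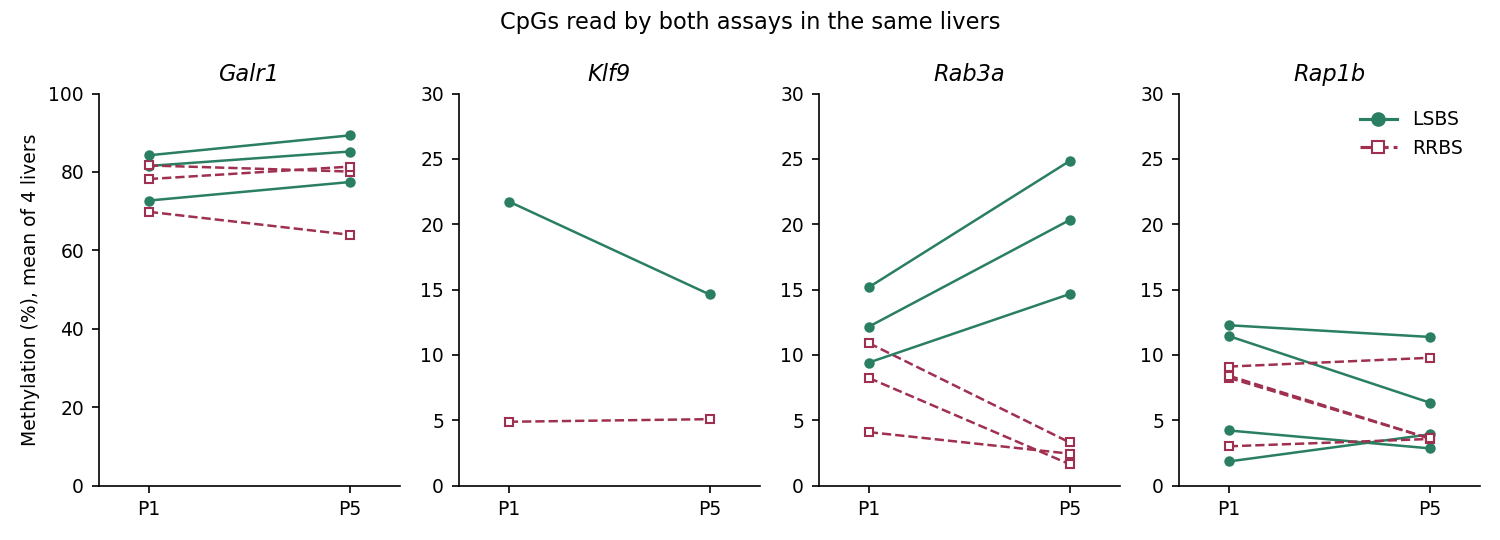
Methylation (%, y axis, mean of 4 livers) at P1 and P5 (x axis) of the CpGs read by LSBS (green circles, solid lines) and RRBS (red squares, dashed lines), one line per CpG, in 4 amplicons. At Rab3a the LSBS lines rise and the RRBS lines fall, and at Klf9 the LSBS point at P1 (21.7%) lies above the RRBS point (4.89%).

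The RRBS tables of heart and muscle covered 2 of these loci at P1 and P5 with a value in every library. At the Klf9 locus each tissue had only 1 such CpG. There heart held 5.13, 4.76, 0 and 1.45% at P1 and 10.0, 13.8, 20.0 and 8.0% at P5. This was a rise of 10.1 points with no overlap (exact permutation p = 0.0286), and without any 1 of the 4 P1 libraries the exact permutation p was 0.0571. Muscle held 1.48% ± 2.03 (SD, n = 5) at P1 and 9.20% ± 6.62 (SD, n = 3) at P5 (exact permutation p = 0.0536). The muscle difference was 4.63 points without P5 library 4 and 11.2 points without P5 library 3 (exact permutation p of 0.143 and 0.0476). Whether these changes differ from that of liver was not tested. At 2 CpGs of Rap1b, heart held 38.9% ± 13.0 at P1 and 41.2% ± 15.3 at P5 (SD, n = 4 each; exact permutation p = 0.914). Muscle held 43.0% ± 14.3 (SD, n = 5) and 26.1% ± 2.58 (SD, n = 3; exact permutation p = 0.0893).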

How the data were processed

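The deposited values are methylation fractions: per liver and CpG, the reads that kept a cytosine divided by all reads, not normalized further. According to the study's methods, the authors aligned LSBS (MiSeq) and RRBS reads to mm9 with Bismark 0.7.6 and Bowtie2, discarded CpGs under a minimum of reads, and removed those missing in many samples. The read depth behind each value is not in the tables used here, so no binomial intervals or detection limits were computed, and low levels near the rate of incomplete conversion cannot be told apart from it. PCR copies of one molecule are counted as separate reads. Fractions were multiplied by 100.

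CpGs were compared with limma 3.58.1 (R 4.3.3), where each age had 2 values or more. A call needed a difference over 5 points with an adjusted p no higher than 0.1, limits taken from the study's methods. Amplicon means were compared by two-sided exact permutation tests in Python 3.11.15. SEs of amplicon differences came from the SDs of both ages. The limma step was tested on simulated data with known shifts. Primer pairs were matched to mm9, and 11 of 11 matched once. The sequence and position of the Chst8 amplicon are not reported here. The logit used an offset of 0.01. The named CpGs are, per amplicon, the one of the primer name (within 1 bp) and those with the largest and smallest change, and further CpGs named in the text were chosen after their values were seen. The members and lists were chosen with earlier results of these data known. In all, 13 of the 117 columns of the tables matched no sample and were not used, and tables on mm10 were not used. Separate mice are implied by the labels of the livers, and the tests set the age difference against the spread between these livers. The titles and the study's methods give no litter, so littermates among livers of one age could not be identified. Same-numbered livers did not deviate together, so the numbers were not taken as pairs.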

Additional observations from a re-analysis of the deposited data

Results flagged for a closer look

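A sample was marked where its gap to the nearest of its group of 4 or 5 was large for the group's range, which chance does in about 1 in 20 groups. Of 100 groups of values tested, 13 held such a sample.

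At the amplicon level, P1 liver 1 held 62.6% at Bmf, below 66.4 to 67.2% in the other P1 livers and above every P5 liver. P1 liver 3 held 85.3% at Bcl11b, above 84.1 to 84.4% in the others. Among highly methylated CpGs, P1 liver 4 held 88.3% at position 109288576 near Bcl11b (others 91.9 to 93.0%) and 72.4% at position 82197752 near Galr1 (others 60.6 to 63.5%). Near Kcna5, P1 liver 1 held 84.2% at position 126367962 (others 93.7 to 97.2%), and P1 liver 2 held 91.5% at position 126367984 (others 83.0 to 84.6%). P1 liver 2 also held 90.1% at the CpG of the Chst8 primer name, where the others held 71.3 to 75.2%.

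Among low CpGs, P5 liver 2 held 7.16% at position 73277222 near Rab3a, where the other P5 livers held 0.854 to 1.93%. P5 liver 5 held 4.18% at position 35868104 (others 1.38 to 1.91%) and 0.761% at position 35868169 (others 0 to 0.138%), both near Dusp4. Near Gm17671, P1 liver 4 held 0.495% at position 102230410, where the other P1 livers were at 0, and P5 liver 1 held 2.64% at position 102230520 (others 0 to 0.646%). In RRBS of heart, P1 library 5 held 58.3% at Rap1b (others 30.3 to 34.8%).

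The change from P1 to P5 differed from the change from E18 to P1 at 18 CpGs, and from the change from P5 to P10 at 1 CpG, by the limma test of the difference itself. These are total changes over intervals of unequal length.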

How the results depend on the processing

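The count of called CpGs (53 of 124) was 48 to 58 when each liver was left out in turn, and 26 (12 higher, 14 lower) with a limit of 10 points in place of 5. Of the other alternatives, the unmoderated model, the weights per liver, the logit scale, the stricter adjusted p, no limit on the difference, the complete CpGs, the removal of low CpGs, the fit of all livers and the replicate block gave 48 to 70. With replicate number as a block, 55 CpGs were called, 52 of them among the 53, but correlations of the deviations of same-numbered livers were -0.323 to 0.0139 and gave no sign of pairing. The block changed no amplicon's call (4 called).

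Called amplicons numbered 4, and 3 to 6 without single livers. Bmf and Ehbp1 were called under every alternative run, by -19.0 to -13.7 and 10.7 to 13.2 points, and Rab3a and Kcna5 were not called on the CpG of the primer name alone (0.412 and 4.38 points), where Bcl11b was called (5.35 points). The Chst8 mean turned to 1.87 points with the median over CpGs, and the CpG with its smallest difference to 0.377 points with the replicate block. Gm17671 turned to 0.235 points on the CpG of the primer name. With weights per liver, 2 CpGs with differences near 0 changed sign: position 102230410 (0.000124 points) and position 23211118 (0.957 points). Without single livers, values near 0 ran across it: Chst8 from -1.08 to 0.880, that CpG of Chst8 from -1.93 to 1.58, position 23211118 from -1.13 to 1.103, position 117336779 from -2.74 to 0.762, position 102230360 from -0.970 to 0.0757, position 102230410 from -0.0765 to 0.0473, position 102230520 from -0.233 to 0.427 and position 73277222 from -0.758 to 0.818 points.

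The mean shift over amplicons was 0.495 to 1.26 points without single livers. On the logit scale it was 0.224 logit units (exact permutation p = 0.00794), and with sign flips of same-numbered livers (replicate block) the exact permutation p was 0.125, in a test that cannot go below 0.0625. CpGs whose step differed from the earlier step numbered 35 with only 3 ages in the fit, 23 on the logit scale, 7 without the 6 livers titled in another format (added after seeing the data) and 7 to 18 without single livers. Against the later step the count was 3 on the logit scale and 0 to 3 without single livers.

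Without single libraries, the RRBS change was -6.32 to -3.40 points at Rab3a in liver (exact permutation p of 0.0286 to 0.114), -5.05 to 4.34 at Galr1, -2.45 to 1.89 at Klf9 and -3.08 to -0.530 at Rap1b. In heart it was 7.76 to 11.8 points at Klf9 (exact permutation p of 0.0286 to 0.0571) and -2.69 to 8.75 at Rap1b, and in muscle 4.63 to 11.2 at Klf9 and -21.9 to -12.8 at Rap1b. The causes were not tested. Depth per CpG is not in the tables, so counting error at the low CpGs could not be given.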
